A study of Mus musculus with 6 samples.

Results

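The 8 factors described here set the identity of the intestinal epithelium. They are the caudal homeobox factors Cdx1 and Cdx2, the nuclear receptors Hnf4a and Hnf4g, the homeobox factor Isx, the Kruppel-like factors Klf4 and Klf5, and the repressor Prdm1. They were chosen by symbol, and all 8 were in both deposited tables, each with 1 RefSeq entry, among 16821 symbols of the first table. RNA had been sequenced from Lgr5-GFP+ intestinal stem cells, sorted on a GFP reporter of the stem cell gene Lgr5, out of crypts of the small intestine. The mice were C57BL/6 and had received tamoxifen in 3 injections, 6 days earlier. The RingKO cells (2 libraries) came from Lgr5Gfp-CreERT2 Ring1a-/- Ring1bf/f mice and the WT cells (2 libraries) from Lgr5Gfp-CreERT2 mice. A second pair added a Ctnnb1-ex3 allele of the beta-catenin gene to both: Bcat_RingKO (Lgr5Gfp-CreERT2-Ctnnb1-ex3 Ring1a-/- Ring1bf/f, 1 library) and Bcat (Lgr5Gfp-CreERT2-Ctnnb1-ex3, 1 library). All 4 genotypes carried the tamoxifen-activated Cre under Lgr5 control, so recombination was limited to cells that express Lgr5 and their progeny, whereas the Ring1a-/- allele was present in every cell. The labels give no age and do not say whether a library was 1 animal or a pool, so the spread between libraries on which p-values rest may be technical.

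Ring1a (symbol Ring1) and Ring1b (symbol Rnf2) are the ubiquitin ligases of Polycomb repressive complex 1 (PRC1). The complex marks histone H2A with ubiquitin at silent developmental genes, many of them with promoters rich in CpG dinucleotides. In the gut endoderm Cdx2 sets the intestinal rather than the gastric or oesophageal programme, and Cdx1 is a related factor with overlapping function that also responds to Wnt signals. Hnf4a and Hnf4g act together on enhancers of absorptive genes, and Isx, a homeobox gene largely restricted to the intestine, represses genes of carotenoid uptake and conversion in mice. Klf5 is known for supporting proliferation in the crypt, Klf4 for differentiation, above all of goblet cells. Prdm1 encodes the repressor Blimp-1, which is present in the fetal and suckling mouse intestine and is lost from the epithelium as it matures at weaning.

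Promoter sequence is shown for 4 factors, because PRC1 targets differ from other genes in CpG content and the factors lay on different sides of the comparison: Isx, which was lower in RingKO cells, Prdm1, which was higher, and Cdx2 and Klf4, which did not pass the test. RefSeq windows on GRCm38.p6 were matched for 5 of the 8 factors (Cdx2, Hnf4a, Isx, Klf4 and Prdm1). Each line gives the 250 bases before the transcript start, 5′ to 3′ on the strand of the gene, with CpG dinucleotides in capitals.
Isx promoter (chr8:74872924-74873173, + strand): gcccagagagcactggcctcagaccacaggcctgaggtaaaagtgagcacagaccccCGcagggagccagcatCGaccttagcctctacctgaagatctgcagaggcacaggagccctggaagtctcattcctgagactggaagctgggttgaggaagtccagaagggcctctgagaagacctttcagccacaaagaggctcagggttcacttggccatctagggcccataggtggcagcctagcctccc
Prdm1 promoter (chr10:44458749-44458998, - strand): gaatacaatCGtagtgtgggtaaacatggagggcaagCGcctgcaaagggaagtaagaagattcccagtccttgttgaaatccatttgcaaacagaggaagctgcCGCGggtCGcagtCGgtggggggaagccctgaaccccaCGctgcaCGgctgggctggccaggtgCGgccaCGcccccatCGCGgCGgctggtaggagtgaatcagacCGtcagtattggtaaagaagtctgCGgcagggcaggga
Cdx2 promoter (chr5:147307250-147307499, - strand): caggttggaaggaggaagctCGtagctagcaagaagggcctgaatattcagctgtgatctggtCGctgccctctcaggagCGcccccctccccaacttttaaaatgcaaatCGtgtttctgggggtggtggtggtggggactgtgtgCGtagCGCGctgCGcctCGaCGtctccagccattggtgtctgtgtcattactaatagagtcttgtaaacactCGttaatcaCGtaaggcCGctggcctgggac
Klf4 promoter (chr4:55532476-55532725, - strand): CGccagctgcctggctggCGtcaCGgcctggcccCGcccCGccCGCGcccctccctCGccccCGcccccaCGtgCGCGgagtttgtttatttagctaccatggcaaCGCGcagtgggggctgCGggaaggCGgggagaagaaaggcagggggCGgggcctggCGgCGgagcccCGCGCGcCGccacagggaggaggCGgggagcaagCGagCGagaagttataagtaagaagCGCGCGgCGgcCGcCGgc
The Isx window held 2 CpG, the Prdm1 window 15, the Cdx2 window 13 and the Klf4 window 32, against a median of 6 over 32841 such windows. As many CpG or more were found in 81.2% of all windows for Isx, in 27.3% for Prdm1, in 31.6% for Cdx2 and in 4.59% for Klf4. The Prdm1 window lies inside the span of longer RefSeq models of the gene, so part of it is intronic for those models. The 2 Hnf4a windows, not printed, held 3 and 4 CpG. Among the 5 genes, the 2 that fell (Isx and Hnf4a) had the windows poorest in CpG. The other 2 factors that fell, Cdx1 and Hnf4g, had no window, and a link between CpG content and direction was not tested. Klf4, which did not pass, had more CpG than Prdm1, which rose. A match to the HNF4 motif CAAAGTC was found in 0 of the 6 windows on either strand, against 3.84% of all windows, and a match to the CDX motif TTTATNG in 0 of 6, against 9.81%. The KLF motif CCNCNCCC, whose matches may overlap each other, was found 9 times in the Klf4 window, 2 times in the Cdx2 window, 1 and 5 times in the 2 Hnf4a windows, 1 time in the Prdm1 window and 0 times in the Isx window, and 45.9% of all windows held it.

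The libraries were checked first. They held 2911422 and 2651201 reads in RingKO, 6753789 and 6294932 in WT, 4470853 in Bcat_RingKO and 922153 in Bcat. Reads of the single libraries were recovered from the deposited group means, and the letters A and B that name the 2 libraries of a group are arbitrary. Ring1 had 9 and 11 reads in RingKO and 484 and 363 reads in WT, while Rnf2 transcripts had 142 and 103 reads in RingKO and 220 and 246 in WT, which does not check the floxed allele because the deleted part is not given. The Bcat_RingKO library had 43 Ring1 reads and the Bcat library 24, a ratio of 0.358 after scaling (95% counting interval 0.213 to 0.617). Lgr5, which defines the sorted cells, had 461 and 222 reads in RingKO, 942 and 922 in WT, 1505 in Bcat_RingKO and 146 in Bcat. RingKO library B stood apart: 12 stem cell markers summed to 7506 and 4249 RPM (reads scaled to a library total of 1000000) in RingKO libraries A and B, and to 8944 and 10083 RPM in WT. Olfm4 weighed heavily in these sums, with 9522 reads in RingKO library A, 3135 in RingKO library B, and 30097 and 33375 in WT. Fits of the 8 factors are therefore also given without RingKO library B.

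In the comparison of RingKO with WT cells, "rose" and "fell" below mean that the adjusted p deposited by the authors was under 0.05. Isx, Hnf4g, Cdx1 and Hnf4a fell, and Prdm1 rose, while Cdx2, Klf5 and Klf4 did not pass. That is 4 of 8 lower and 1 of 8 higher, against 2.95% of entries that fell and 5.09% that rose among the 10957 entries averaging 10 or more normalized reads. By edgeR 2 of 8 were lower and 1 of 8 higher, against 2.95% and 9.91% of the 11170 entries it tested. The 8 factors were named with earlier results of these data known, so their share is a description. The deposited scaling places the median entry at a log2 fold change of -0.18, and edgeR's trimmed-mean (TMM) scaling at -0.01, and the log2 fold changes with ± below are edgeR estimates with SE from 2 libraries per genotype. Levels are in RPM.

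**Figure D1:**
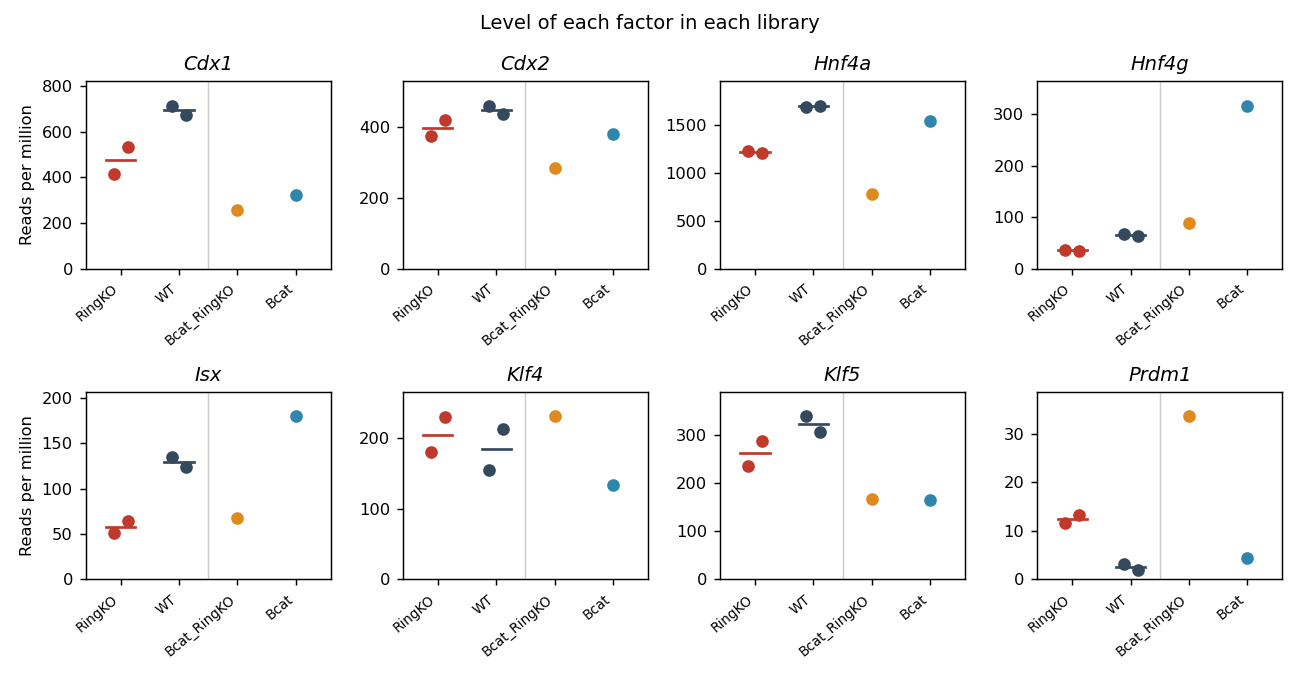
RPM (vertical axis, from 0) of the 8 factors in every library, 1 panel per factor, with a point per library and a bar at the mean of the 2 libraries of RingKO and of WT. The 2 RingKO points of Isx (50.8 and 64.9) lie below both WT points (135 and 124), and Prdm1 is highest in Bcat_RingKO (33.6).

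Of the caudal pair, Cdx1 fell and Cdx2 did not pass. Cdx1 had 415 and 534 RPM in the RingKO libraries, against 714 and 672 in the WT libraries. Both RingKO libraries were below both WT libraries, and they were further from each other than the WT libraries were. The log2 fold change was -0.51 ± 0.16, and the authors' deposited adjusted p was 0.00893. In edgeR's quasi-likelihood test, adjusted after Benjamini and Hochberg, Cdx1 missed the threshold (adjusted p = 0.0873), as it did without WT library A (0.490) or WT library B (0.448), whereas without RingKO library B it passed (log2 fold change -0.67, adjusted p = 0.000323). Cdx2 had 375 and 419 RPM in RingKO, against 461 and 437 in WT. The libraries did not overlap, but the gap was small: the log2 fold change was -0.14 ± 0.14 with a 95% interval from -0.46 to 0.19, and the authors' deposited adjusted p was 0.581. Without RingKO library B it was -0.19, with an edgeR quasi-likelihood adjusted p of 0.297. Non-overlap by itself was common, since the RingKO libraries lay below the WT libraries on the deposited scale for 45.3% of entries with a mean of at least 10. Of the 8 factors, 6 lay wholly below (all but Klf4 and Prdm1). In these sorted bulk libraries, fewer cells of a type and less RNA per cell cannot be told apart.

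The HNF4 receptors both fell, by different amounts. Hnf4a, the most abundant of the 8 in reads, had 1228 and 1204 RPM in RingKO libraries, against 1684 and 1699 in WT libraries. The libraries of each genotype were close to each other and the groups stood apart. Its log2 fold change was -0.43 ± 0.15 and the authors' deposited adjusted p was 0.0242, while edgeR's quasi-likelihood adjusted p was 0.112 (0.506 without WT library A, 0.615 without WT library B, 0.0182 without RingKO library B). Hnf4g was far scarcer, with 36.8 and 34.3 RPM in RingKO and 67.1 and 64.2 in WT. All 4 values were tight within their genotype. The log2 fold change of Hnf4g was -0.84 ± 0.15, with an authors' deposited adjusted p of 0.0051 and an edgeR quasi-likelihood adjusted p of 0.00906, which became 0.102 without WT library A, 0.0801 without WT library B, and 0.00416 (log2 fold change -0.77) when RingKO library B was omitted.

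Isx showed the largest decrease of the 8. It had 148 and 172 reads in the RingKO libraries, or 50.8 and 64.9 RPM, against 910 and 778 reads, or 135 and 124 RPM, in the WT libraries. Both RingKO libraries lay far below both WT libraries. The log2 fold change was -1.12 ± 0.16 and the authors' deposited adjusted p was 2.7e-06, and 1.47% of entries with a mean of at least 10 had a lower deposited log2 change. Its call held by edgeR's quasi-likelihood test with all libraries (adjusted p = 0.00307) and without any 1 library (adjusted p between 6.77e-06 and 0.0359).

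Neither Kruppel-like factor passed the authors' test. Klf5 had 236 and 287 RPM in RingKO, against 339 and 305 in WT. Its log2 fold change was -0.26 ± 0.15 with a 95% interval from -0.61 to 0.09 (authors' deposited adjusted p = 0.269). With 1 library left out it lay between -0.38 (without RingKO library B) and -0.14 (without RingKO library A). In the fit without RingKO library B, and in no other, Klf5 was called as lower. Klf4 was the only factor of the 8 whose libraries overlapped between genotypes, at 179 and 229 RPM in RingKO and 155 and 212 in WT. Its log2 fold change was 0.19 ± 0.19 with a 95% interval from -0.25 to 0.63 (authors' deposited adjusted p = 1), and 0.03 when RingKO library B was omitted (edgeR quasi-likelihood adjusted p = 0.926). Klf4 is also one of the genes known to respond quickly to tissue handling. A list of 12 genes induced by dissociation was added after the data were seen. Of these, 2 rose by the authors' test and 10 by edgeR, against 5.09% and 9.91% of entries. The 12 summed to 9095 and 14257 RPM in RingKO and 4992 and 6624 in WT. The part of this difference in the Klf4 values was not tested.

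Prdm1 rose, although its counts were low. It had 34 and 35 reads in the RingKO libraries and 21 and 12 reads in the WT libraries; the WT libraries were the deeper ones. In RPM that was 11.7 and 13.2 in RingKO, against 3.11 and 1.91 in WT, with no overlap, as for 18.5% of entries averaging 10 or more. The log2 fold change was 2.33 ± 0.36, a 5.03-fold higher level, with a 95% interval from 1.5 to 3.16 on the log2 scale, and the authors' deposited adjusted p was 0.00429. The edgeR quasi-likelihood adjusted p was 0.00431 with all libraries, 0.0512 without WT library B (log2 fold change 2.03) and 0.00129 without RingKO library B. Because Blimp-1 is also made by plasma cells and some T cells, immune markers are given beside it. The 10 markers of this kind summed to 31.9 and 59.97 RPM in RingKO and 25.5 and 21.6 in WT, with 4 and 4 of the 10 at 0 reads in RingKO and 0 and 3 in WT. The macrophage gene Cd68 had 57 and 107 reads in RingKO and 97 and 85 in WT (1.13 ± 0.31, edgeR quasi-likelihood adjusted p = 0.0520), and 283 reads in Bcat_RingKO against 6 in Bcat, an authors' deposited ratio of 8.11. Cd68 made up most of the immune sum in every library but Bcat, and its part in the Prdm1 values was not tested. The pan-leukocyte gene Ptprc had 0 reads in both RingKO libraries, and the B lineage gene Cd79a had 3 and 20 reads in RingKO and 10 and 12 in WT. The immune list had 0 genes past the authors' test, 0 at an unadjusted p under 0.05, and 0 by DESeq2. With its filter of low counts edgeR tested 2 of them and called 0, and with no filter it called 1. Calls by edgeR also appeared when RingKO library A was left out.

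The same genotype difference was then read in the Bcat pair, which shares no library with the first and has 1 library per genotype, so that it allows no replicate test and its intervals cover counting error only. Ratios are of reads over the deposited size factors, on which the median entry stood at a log2 ratio of 0.31 (0.10 after TMM scaling, which lowers every ratio by 0.22 on the log2 scale). Hnf4g, Isx and Hnf4a were at or below a ratio of 0.5, and Prdm1 was above 2. Of 10266 entries averaging 10 or more, 9.19% were at or below 0.5 and 27.1% at or above 2, so a single rise past 2 in 8 is no more than the background share.

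Hnf4g had 88.1 RPM in Bcat_RingKO and 317 in Bcat, a ratio of 0.270 (0.231 to 0.315). Isx had 67.5 and 180.0 RPM in Bcat_RingKO and Bcat, a ratio of 0.364 (0.300 to 0.442). Hnf4a had 778 RPM in Bcat_RingKO and 1539 in Bcat, a ratio of 0.490 (0.461 to 0.522) that is just inside the limit and stood at 0.506 when scaled by library totals. These 3 factors, all of which fell in RingKO against WT, were thus lower in the Bcat_RingKO library as well. Cdx1 had a ratio of 0.771 (0.679 to 0.879) and Cdx2 of 0.727 (0.646 to 0.821), so here the counting intervals of the caudal pair overlapped. Klf5 was at 0.982 (0.823 to 1.18), and Klf4 at 1.67 (1.39 to 2.03), or 1.44 (1.19 to 1.75) after TMM scaling. Prdm1 had 150 reads in Bcat_RingKO and 4 in Bcat, a ratio of 7.5 with a wide interval from 2.87 to 27.9. In the same pair the 12 dissociation genes summed to 5449 RPM in Bcat_RingKO and 1666 in Bcat, and the 10 immune markers to 96.4 and 51.0. Their part in the Klf4 and Prdm1 values was not tested. Enterocyte markers, 12 in number, summed to 2097 RPM in Bcat_RingKO and 6191 in Bcat, and their part in the Hnf4g, Isx and Hnf4a values was not tested. Whether the size of the change differed between the pairs was not tested, because the tables were scaled separately and the second has no replicates.

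**Figure D2:**
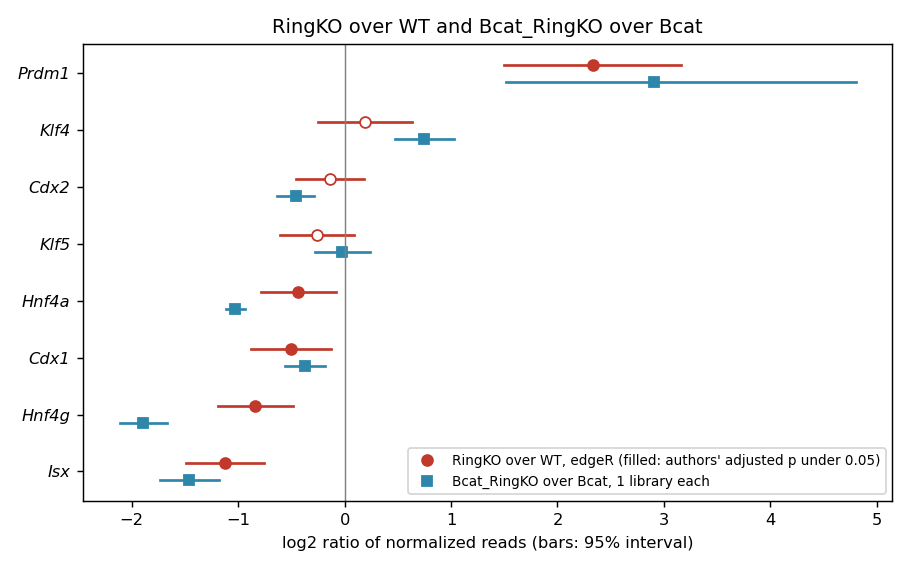
Log2 ratio of normalized reads (horizontal axis) of the 8 factors for RingKO over WT (circles, edgeR estimate with its 95% interval over 2 libraries each, filled where the authors' adjusted p was under 0.05) and for Bcat_RingKO over Bcat (squares, 1 library each, with the 95% counting interval). Isx (-1.12 and -1.46) and Hnf4g (-0.84 and -1.89) lie left of 0 in both, and Prdm1 (2.33 and 2.91) lies right of 0 in both.

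Across the 4 genotypes, levels per kilobase of transcript gave the order of the factors within a library. In WT, Cdx1 (396 ± 17.0 RPM per kilobase, SD, n = 2) and Hnf4a (388 ± 2.34) led with overlapping libraries, and were followed by Cdx2 (198 ± 7.48), Klf5 (96.1 ± 7.02), Isx (72.0 ± 4.4), Klf4 (60.6 ± 13.5), Hnf4g (29.5 ± 0.920) and Prdm1 (0.623 ± 0.211). Isx and Klf4 also overlapped there, and every other pair of neighbours was apart. The RingKO libraries kept Hnf4a (279 ± 3.94) and Cdx1 (271 ± 48.3) at the top with overlapping libraries, and Klf5 (78.0 ± 10.9) and Klf4 (67.3 ± 11.5) overlapped as well, while Isx (32.3 ± 5.54) stood below both. Prdm1 was the lowest of the 8 in all 4 genotypes, at 3.09 ± 0.27 in RingKO, 8.34 in Bcat_RingKO and 1.08 in Bcat. Hnf4g held rank 7 in RingKO and in WT, rank 6 in Bcat_RingKO (39.6) and rank 4 in Bcat (142). Klf4 per kilobase was higher than Klf5 in Bcat_RingKO only (76.0 and 49.8 RPM per kilobase).

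Set side by side in RPM, the Bcat library held 4.83 times the mean WT level of Hnf4g (317 against 65.6 RPM), and 3.98 times after TMM scaling over all 6 libraries. It held 0.468 of the WT level of Cdx1 (324 against 693) and 0.512 of that of Klf5 (165 against 322), which TMM scaling put at 0.386 and 0.423. For Isx the ratio was 1.39, for Hnf4a 0.910, for Cdx2 0.846, for Klf4 0.727 and for Prdm1 1.73, the last from 4 reads. These values compare 1 library with 2 across separately scaled tables and carry no test. The 12 enterocyte markers summed to 6191 RPM in Bcat and to 1906 and 1702 in WT. Their part in the Hnf4g values was not tested.

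The ratio of related factors within a library is free of scaling. Per kilobase, Cdx1 stood at 1.43 and 1.65 times Cdx2 in the RingKO libraries and at 2.003 and 1.988 times in the WT libraries. The counting intervals of the 2 genotypes did not overlap (the highest RingKO bound was 1.79 and the lowest WT bound 1.89). Such intervals cover counting error only and leave out the spread between libraries. The Bcat_RingKO library had 1.17 and the Bcat library 1.104, with overlapping intervals. Hnf4a stood at 17.1 and 17.9 times Hnf4g in RingKO, against 12.8 and 13.5 times in WT, with counting intervals that overlapped (14.1 to 20.9 in RingKO library A and 11.7 to 14.1 in WT library A). In the Bcat pair the ratio was 4.51 (4.06 to 5.02) in Bcat_RingKO and 2.48 (2.19 to 2.82) in Bcat. For Klf4 over Klf5 the RingKO libraries had 0.842 and 0.880 and the WT libraries 0.506 and 0.770, the Bcat_RingKO library 1.53 and the Bcat library 0.896. Here the intervals of the 2 WT libraries did not overlap each other (0.470 to 0.544 in A and 0.717 to 0.826 in B), so non-overlap alone does not mark a genotype difference. A two-sided exact permutation test of 2 against 2 libraries cannot give a p under 0.333, so no p is given for these ratios.

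**Figure D3:**
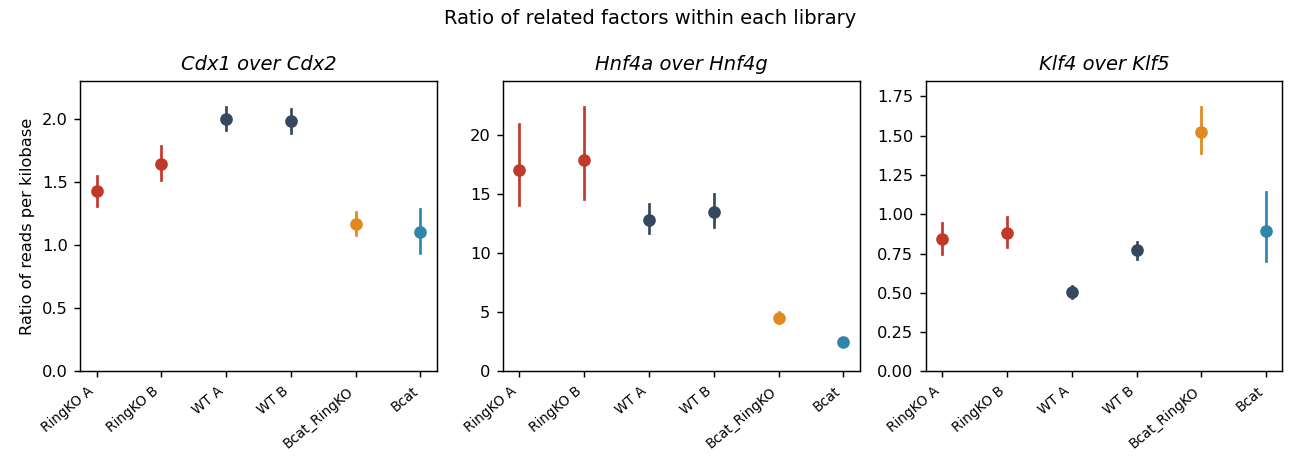
Ratio of reads per kilobase of Cdx1 to Cdx2, Hnf4a to Hnf4g and Klf4 to Klf5 (vertical axes, from 0) in each of the 6 libraries, with exact 95% counting intervals as bars. The Hnf4a to Hnf4g ratio is 17.1 and 17.9 in RingKO, 12.8 and 13.5 in WT, 4.51 in Bcat_RingKO and 2.48 in Bcat.

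Among other epithelial transcription factors, the vitamin D receptor gene Vdr fell (log2 fold change -0.68 ± 0.16, authors' deposited adjusted p = 0.000303). The endodermal GATA factors Gata4, Gata5 and Gata6 and the pioneer factors Foxa1, Foxa2 and Foxa3, named after their values were seen, did not pass. Their edgeR log2 fold changes lay between -0.27 (Gata4) and 0.31 (Foxa2). In the Bcat pair Vdr had an authors' deposited ratio of 0.765, Gata4 of 1.77 and Foxa2 of 2.12. The median deposited log2 fold change of the 8 factors was -0.53, against -0.18 for the median entry.

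Of the 15 other Klf genes in the table, 0 passed the authors' test. At an unadjusted p under 0.05 there was 1 higher, and DESeq2 called 3 as higher. Of the 11 that edgeR tested it called 4 as higher, against 9.91% of the 11170 entries it tested. These were Klf2, Klf6, Klf11 and Klf15, named after their values were seen. Klf2, a factor of endothelial and immune cells, had 96 and 299 reads in RingKO and 69 and 96 in WT, and most of its excess was in RingKO library B. Klf6 had 363 and 650 reads in RingKO and 428 and 613 in WT. By edgeR's quasi-likelihood test their adjusted p was 0.0134 and 0.0378, and Klf2 and Klf6, like Klf4, are known to respond to tissue handling. The part of the dissociation sums in these values was not tested. When 1 library was left out, edgeR called 0 (without WT library A), 2 (without WT library B), 7 (without RingKO library A) and 4 (without RingKO library B) of these Klf genes.

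Genes downstream of the factors were split by their known regulators. Of 19 enterocyte genes bound by Cdx2 or Hnf4 factors, 3 fell and 0 rose in RingKO, against 2.95% and 5.09% of entries averaging 10 or more (17 of the 19 reach that mean). They were Fabp2, a fatty acid carrier (-0.96 ± 0.20), Mep1a, a brush border protease (-1.52 ± 0.22), and Sis, the sucrase-isomaltase (-0.97 ± 0.23). The structural gene Vil1 (0.30 ± 0.15), the adhesion gene Cdh17 (-0.17 ± 0.16) and the glucose carrier Slc5a1 (-0.10 ± 0.13) did not pass. The apolipoprotein genes varied within RingKO, Apoa4 with 187 reads in library A and 776 in library B, against 768 and 382 in WT. The median deposited log2 fold change of the list was 0.21, above the median entry, although the 3 called genes were lower. In either direction edgeR called 4 genes with all libraries, 12 without RingKO library A, 9 without RingKO library B and 1 without either WT library. The Bcat pair differed more on this list: 12 of 17 genes were at or below 0.5, where 9.19% of all entries were, and the median log2 ratio was -1.79. Their summed level was 3193 RPM in Bcat_RingKO and 7148 in Bcat, against 3036 and 4110 in RingKO and 3180 and 3146 in WT.

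Around Isx, 8 retinoid genes were measured, of which 2 rose and 0 fell, against 5.09% and 2.95% of entries averaging 10 or more (6 of the 8 reach that mean). Those 2 were the retinoic acid receptor genes Rarg, with 11 and 10 reads in RingKO and 0 and 0 in WT, and Rarb, with 21 and 14 reads in RingKO and 6 and 6 in WT. Their authors' deposited adjusted p was 0.00864 and 0.0327. Rarg, with deposited means of 16.4 in RingKO and 0.672 in WT, averages under 10, so of the 6 only Rarb rose. Of the list edgeR called 3 with all libraries, 0 without either WT library, 3 without RingKO library A and 4 without RingKO library B. Scarb1, a lipid and carotenoid carrier that Isx represses in mice, had 51 and 29 reads in RingKO and 38 and 33 in WT. It missed the authors' test (deposited adjusted p = 0.312), while edgeR gave 1.43 ± 0.33 with a quasi-likelihood adjusted p of 0.0245. Bco1, the other known target, was not analysed here.

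Genes that mark the suckling period, when Prdm1 is active in the mouse gut, mostly did not pass. Of 10, Amn rose and 0 fell, against 5.09% and 2.95% of entries averaging 10 or more (7 of the 10 reach that mean). A single rise among so few genes cannot be told from the background share. Amn, encoding a partner of the endocytic receptor cubilin, had 426 and 360 reads in RingKO and 506 and 446 in WT (1.00 ± 0.14, authors' deposited adjusted p = 0.00911). Ass1, an enzyme of arginine synthesis, had 112 and 107 reads in RingKO and 135 and 129 in WT (1.00 ± 0.16), missed the authors' test (adjusted p = 0.116) and passed edgeR's quasi-likelihood test (adjusted p = 0.00567). Lct, the lactase of suckling mice, had 32 and 85 reads in RingKO and 88 and 62 in WT. Calls by edgeR on this list numbered 2 with all libraries, 0 without either WT library, 4 without RingKO library A and 2 without RingKO library B. Of 5 genes of the adult period, Sis fell, and Lyz1 (1.66 ± 0.27) and Ang4 (2.60 ± 0.39) rose, both products of Paneth cells. The shares of entries that fell and rose were again 2.95% and 5.09% (4 of the 5 average 10 or more).

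Factors of the neighbouring gut regions were examined next. Of 9 stomach and hindgut factors, 6 rose and 0 fell, namely Barx1, Sox21, Sox2, Hoxa13, Hoxb13 and Hoxd13, against 5.09% of entries with a mean of at least 10 that rose. When 1 library was left out, edgeR called between 5 and 8 of them. Sox2, which specifies the foregut where Cdx2 is absent, had 18 and 12 reads in RingKO and 1 and 3 in WT, and 46 reads in Bcat_RingKO against 0 in Bcat. Its relative Sox21 had 85 and 59 reads in RingKO and 13 and 32 in WT. Pdx1, a factor of the duodenum and antrum, did not pass (-0.64 ± 0.23, authors' deposited adjusted p = 0.33). Cdx2 itself did not pass in RingKO against WT, with a 95% interval from -0.46 to 0.19 on the log2 scale. In the Bcat pair its ratio was 0.727 (0.646 to 0.821). The part of Cdx2 in these rises was not tested.

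**Figure D4:**
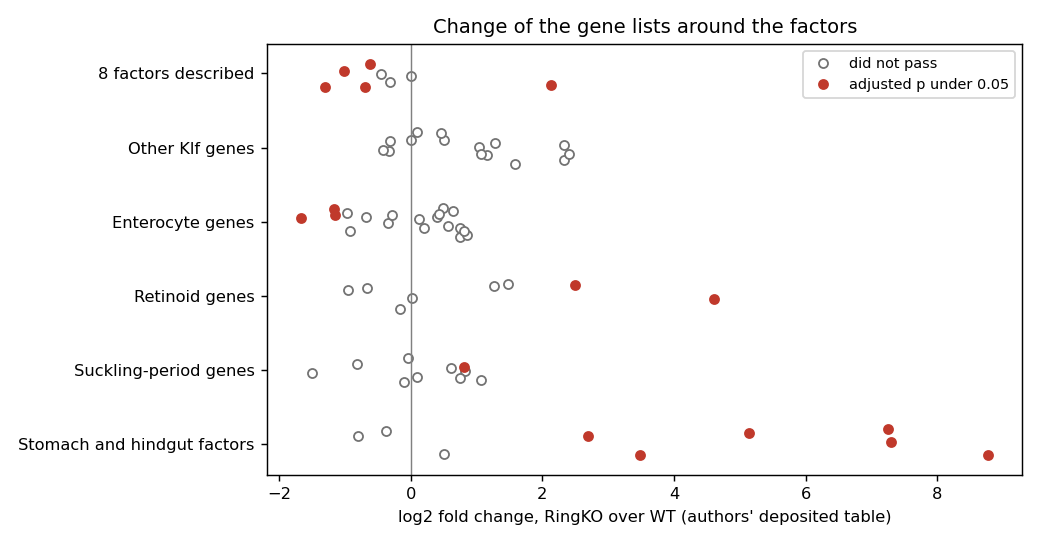
Log2 fold change of RingKO over WT in the authors' deposited table (horizontal axis) for the 8 factors and 5 gene lists around them, with a point per gene, filled where the adjusted p was under 0.05. Filled points of the 8 factors lie on both sides of 0 (4 lower, 1 higher), and all 6 filled points of the stomach and hindgut factors lie to the right.

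Markers of other epithelial cells moved between the groups too. In RPM, 12 enterocyte markers summed to 1623 and 2449 in RingKO and 1906 and 1702 in WT, and to 2097 in Bcat_RingKO and 6191 in Bcat. Of 10 Paneth cell markers 7 rose, against 5.09% of entries averaging 10 or more, with sums of 10041 and 13873 in RingKO and 4348 and 2843 in WT, and 1444 in Bcat_RingKO and 4864 in Bcat. Goblet cell markers summed to 11177 and 18215 in RingKO and 11518 and 13466 in WT, and 3593 and 4155 in Bcat_RingKO and Bcat. Of 13 enteroendocrine markers 8 fell and 1 rose, and of 8 tuft cell markers 4 fell, against 2.95% of entries that fell. The enteroendocrine sums were 792 and 959 in RingKO and 1590 and 1835 in WT, and 497 in Bcat_RingKO and 2296 in Bcat. The tuft cell sums were 54.3 and 66.4 in RingKO and 189 and 186 in WT, and 232 in Bcat_RingKO and 324 in Bcat. The mesenchymal sums were 20.3 and 17.0 in RingKO and 44.1 and 39.7 in WT, and 139 in Bcat_RingKO and 118 in Bcat. Vim, which fell, had 31 and 27 reads in RingKO and 244 and 221 in WT, while the fibroblast collagen gene Col1a1 had 13 and 10 reads in RingKO and 18 and 5 in WT. In the Bcat pair Vim went the other way, with 608 reads in Bcat_RingKO and 60 in Bcat, an authors' deposited ratio of 1.997. Of the 4 mesenchymal markers averaging 10 or more there, 3 were at or below a ratio of 0.5, against 9.19% of entries. Col1a2, 1 of these, had 0 reads in Bcat_RingKO and 25 in Bcat. Of 12 stem cell markers 3 fell (Aqp4, Ascl2 and Cdca7) and 0 rose, against 2.95% of entries that fell. No marker of the Paneth, goblet, enterocyte or stem cell lists was at 0 reads in any library. The part of these sums in the levels of the 8 factors was not tested.

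Finally, the entries most alike to each factor over the 6 libraries were found by Euclidean distance between centred log2 levels, among 6935 entries. Isx was closest to Gstm3 (distance 0.23, where the median entry lay at 1.83) and Septin5 (0.47), both of which fell. Hnf4g was closest to Maoa (0.37, median 2.50), which fell, and Cenpp (0.58). For Hnf4a the closest were Gmds (0.21) and Pdlim1 (0.23), for Cdx2 Ndufa10 (0.14) and Fam96b (0.15), and for Cdx1 Cyc1 (0.32) and Ruvbl2 (0.46). Klf4 lay nearest to Klf9 (0.17), of its own family, and to Tob1 (0.24), and Klf5 to Ruvbl2 (0.19) and Hspbp1 (0.24). Prdm1 was closest to Dtx3 (0.30, median 2.91) and Trim62 (0.60), both of which rose. Among the 8, the closest pair was Cdx1 and Klf5 (0.41), followed by Cdx2 and Hnf4a (0.52). With 6 points, of which pairs share a genotype, these distances describe the libraries only.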

How the data were processed

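RNA of sorted Lgr5-GFP+ cells was made into libraries with the TruSeq RNA kit, per the labels' protocols. TopHat, DESeq and build mm9 are named, per the submitters' processing notes. The sources used here do not give the read counter, the annotation or the strand setting. From the values, the signal (normalized coverage) the authors deposited is a read count plus 1 over a size factor, as group means for WT and RingKO and per library for the Bcat pair. The deposited fold (ratio), its log2 value, and p-values with adjusted p-values (first table) are the authors' own. Each mean was split into the whole counts of its 2 libraries: 18362 WT values had 1 solution, 14 more than 1 (none of them a factor described here), and all 18376 RingKO values had 1. Whole reads came out of 100% of Bcat and Bcat_RingKO values, within 0.001.

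The main test was the authors' adjusted p under 0.05. edgeR 4.0.16 (quasi-likelihood, TMM, filterByExpr), DESeq2 1.42.0 and limma 3.58.1, all tested on simulated data, were alternatives. Their calls are given in the closing section. SE is the log2 fold change over the root of the F statistic. Bcat ratios have exact conditional binomial (Clopper-Pearson) intervals, which cover counting error only. Lengths are of GENCODE M21 transcripts and promoters of RefSeq (GRCm38.p6). The factors, lists and tests were chosen with earlier results of these data known. The text names the 8 factors, the 2 entries most alike to each (mean of at least 50 in both tables, 1 added to RPM), up to 6 called genes per list, and Ring1 and Rnf2. Other genes were named after their values were seen. Some results on other epithelial transcription factors are not reported here.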

Additional observations from a re-analysis of the deposited data

How the results depend on the processing

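Isx kept its direction and its call under all 10 alternatives for RingKO against WT. Prdm1 lost its call without WT library B, Hnf4g without either WT library, and Cdx1 and Hnf4a with edgeR and limma on all libraries and without either WT library. The factors that fell numbered 4 by the authors' test and by DESeq2, 2 by edgeR with TMM, median-of-ratios scaling or no filter and by limma with either pseudocount, and 1 to 5 when a library was left out. The 1 factor that rose became 0 to 1. Klf4 and Cdx2 passed in none of the 10, and Klf5 passed only without RingKO library B. Entries that rose numbered 577 by the authors' test, 1107 by edgeR, 872 by DESeq2, 962 and 971 by limma with pseudocounts of 1 and 8, 1121 with median-of-ratios scaling, 1060 with no filter and 479 to 1938 when a library was left out. Entries that fell numbered 323, and 83 to 1338 when a library was left out. The cause of these differences was not tested. A left-out library leaves its group with 1, which is then assumed to vary like the other group. In the Bcat pair a limit of 1.5 in place of 2 gave 1791 entries and 3 factors below. Above it were 4121 of the 10266 entries and 2 factors (Klf4 added), no more than the background share. No paired analysis was possible because the recovered libraries carry no replicate numbers. Other RefSeq entries were not run, since each factor has 1. Depth limits Prdm1 most, with 12 to 35 reads per library in the first pair and 4 in Bcat.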
